A study of Mus musculus with 12 samples.

Results

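Dual-specificity phosphatases that act on mitogen-activated protein kinases (MAPKs) were examined as 10 named genes: Dusp1, Dusp2, Dusp4, Dusp5, Dusp6, Dusp7, Dusp10, Dusp16, Dusp3 and Dusp14. They were found by matching the mouse Ensembl gene identifiers of the expression matrix to gene symbols, which gave 10 of the 54104 rows that carry such an identifier. All 10 had at least 1 FPKM (mapped fragments scaled to gene length and to the library's mapped total) in at least 3 of the 12 libraries, as 13610 genes did, and entered the tests. By its design the study sequenced RNA from mouse myeloid-derived suppressor cells (MDSCs), immature myeloid cells that build up in tumor-bearing hosts. Its groups were Ly6C tumor, Ly6C spleen, Ly6G tumor and Ly6G spleen, with 3 libraries each. The design names polymorphonuclear and monocytic MDSCs, and Ly6G and Ly6C are the surface antigens by which such cells are usually told apart. The labels give no mouse strain, age, tumor model, sorting gate or treatment, so no property shared by all 4 groups can be listed. Nothing states that replicate libraries came from separate mice, so the p-values measure the spread between these libraries, which may be technical.

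MAPKs are switched on by phosphorylation of a threonine and a tyrosine in the activation loop, and dual-specificity phosphatases remove both phosphates. Many of these phosphatase genes are themselves transcribed when the extracellular signal-regulated kinase (ERK), p38 or c-Jun N-terminal kinase (JNK) pathway is active, which makes them negative feedback regulators. In myeloid cells, Dusp1 is best known for limiting p38 and JNK activity after exposure to bacterial products, and Dusp6 for limiting ERK activity.

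Marker genes were used to check the labels. Ly6g had 31.5 to 54.1 FPKM in Ly6G tumor libraries and 590.7 to 717 FPKM in Ly6G spleen libraries. The range was 11.8 to 13.8 FPKM in Ly6C tumor libraries and 131 to 209 FPKM in Ly6C spleen libraries. Ly6c2 did not separate the labels in tumor, with 6.35 to 8.16 FPKM in Ly6C tumor and 5.31 to 7.80 FPKM in Ly6G tumor libraries. It averaged 247 FPKM in Ly6C spleen and 214 FPKM in Ly6G spleen. Tumor libraries stood apart from spleen libraries in leukocyte transcripts: the summed level of 20 pan-leukocyte genes was 177 to 359.9 FPKM in Ly6C tumor and 4213 to 4838 FPKM in Ly6C spleen. The same sum was 433 to 747 FPKM in Ly6G tumor and 5077 to 5269 FPKM in Ly6G spleen. All 20 were lower in tumor in both labels by the limma test used throughout. Among them Ptprc, which encodes the leukocyte antigen CD45, had 2.59 to 4.59 FPKM in Ly6C tumor and 26.3 to 38.3 FPKM in Ly6C spleen, and 7.66 to 13.95 FPKM in Ly6G tumor and 34.8 to 52.5 FPKM in Ly6G spleen. Krt8, a keratin of simple epithelia, had 356 to 770.0 FPKM in the 6 tumor libraries and at most 0.263 FPKM in the 6 spleen libraries. The summed level of 8 epithelial genes was 753 to 1020 FPKM in Ly6C tumor and 0.347 to 0.557 FPKM in Ly6C spleen. It was 446 to 754 FPKM in Ly6G tumor and 0.917 to 1.23 FPKM in Ly6G spleen. Krt8 made up most of the tumor sum, averaging 670 FPKM in Ly6C tumor and 483 FPKM in Ly6G tumor. Only 2 of the 8 reached 1 FPKM in all libraries of each tumor group, and Epcam was listed at 0 in all Ly6C tumor libraries. Those 2 alone were tested. They entered the tests through the tumor libraries, so their rise in each label is no separate sign. The summed level of 9 fibroblast genes, such as the collagen gene Col3a1, was 193 to 365 FPKM in Ly6C tumor, 1.89 to 2.40 FPKM in Ly6C spleen, 137 to 329 FPKM in Ly6G tumor and 4.14 to 6.44 FPKM in Ly6G spleen. Of the 8 tested, 5 rose in Ly6C tumor and 7 in Ly6G tumor. At most 1 of the 9 reached 1 FPKM in all libraries of a spleen group, so most entered the tests through the tumor libraries. Myeloid transcripts were present in tumor. The summed level of 12 neutrophil genes was 1381 to 2617 FPKM in Ly6C tumor and 65090 to 101910 FPKM in Ly6C spleen. It was 4273 to 8507 FPKM in Ly6G tumor and 126213 to 160278 FPKM in Ly6G spleen. Sums of 10 macrophage genes overlapped, with 139 to 243 FPKM in Ly6C tumor and 156 to 334 FPKM in Ly6C spleen. In Ly6G they were 108 to 319 FPKM in tumor and 280 to 650 FPKM in spleen. Sums of 10 monocyte genes were 45.8 to 72.1 FPKM in Ly6C tumor and 383 to 775 FPKM in Ly6C spleen. They were 30.4 to 59.9 FPKM in Ly6G tumor and 299.8 to 312 FPKM in Ly6G spleen. The leukocyte, keratin and collagen values go against a description of the tumor libraries as MDSCs alone. Whether those libraries hold sorted MDSCs was not tested, and the group names below are those of the labels. Every tumor against spleen result below moves together with these markers, and their part in it was not tested. In such bulk libraries, fewer cells of a type and less RNA per cell cannot be told apart. Mitochondrial transcripts made up 11.9% of FPKM in Ly6G tumor replicate 3 and 7.84% in Ly6C tumor replicate 3, more than in any other library.

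The members lie on 9 chromosomes of the GRCm38 build and are all annotated as protein-coding in GENCODE M21. Dusp1 (ENSMUSG00000024190) spans 26505590 to 26562128 on chromosome 17, minus strand. Dusp2 (ENSMUSG00000027368) spans 127336159 to 127338376 on chromosome 2, plus strand. Dusp4 (ENSMUSG00000031530) spans 34807297 to 34819894 on chromosome 8, plus strand. Dusp5 (ENSMUSG00000034765) spans 53529109 to 53542431 on chromosome 19, plus strand. Dusp6 (ENSMUSG00000019960) spans 99263231 to 99267489 on chromosome 10, plus strand. Dusp7 (ENSMUSG00000053716) spans 106368632 to 106375724 on chromosome 9, plus strand. Dusp10 (ENSMUSG00000039384) spans 184013302 to 184075636 on chromosome 1, plus strand. Dusp16 (ENSMUSG00000030203) spans 134715468 to 134792625 on chromosome 6, minus strand. Dusp3 (ENSMUSG00000003518) spans 101971143 to 101987013, and Dusp14 (ENSMUSG00000018648) spans 84048041 to 84069261, both on the minus strand of chromosome 11.

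Exons of 3 members overlap an exon of a gene on the opposite strand, and no source used here says whether the counting used strand. Dusp1 overlaps Ergic1, a gene of the early secretory pathway, and reads from their shared bases cannot be told apart without strand. Ergic1 had 23.1 ± 4.68 FPKM in Ly6C tumor and 2.62 ± 0.775 FPKM in Ly6C spleen (SD, n = 3 each). It had 19.9 ± 2.02 FPKM in Ly6G tumor and 2.38 ± 0.525 FPKM in Ly6G spleen (SD, n = 3 each), far under Dusp1 in every group. Dusp3 overlaps the antisense gene Gm20659, which had at most 0.150 FPKM in any library, and Dusp5 overlaps the antisense gene AC137853.2, not analysed here.

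Promoter sequence from RefSeq (GRCm38.p6) was available for 9 members, all but Dusp4. The 4 windows below are shown because Dusp1 and Dusp7 are the members whose tissue change differed between the labels, while Dusp5 and Dusp6 are the ERK-selective members of highest level in tumor. Each runs 5′ to 3′ on the gene's own strand within the 250 bases before the RefSeq start, without bases that GENCODE annotates as exon on that strand. Capitals mark matches to the cyclic AMP response element (CRE, TGACGTCA) or its core TGACG, the E-box CACGTG, the AP-1 motif TGANTCA or the CArG box of the serum response element, searched on both strands. The CRE contains the core on each strand.
Dusp1, chr17:26508520-26508722, minus strand: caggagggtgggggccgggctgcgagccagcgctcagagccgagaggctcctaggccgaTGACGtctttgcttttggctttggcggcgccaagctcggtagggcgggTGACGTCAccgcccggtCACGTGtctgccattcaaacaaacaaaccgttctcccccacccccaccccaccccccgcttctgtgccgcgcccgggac
Dusp5, chr19:53528895-53529108, plus strand: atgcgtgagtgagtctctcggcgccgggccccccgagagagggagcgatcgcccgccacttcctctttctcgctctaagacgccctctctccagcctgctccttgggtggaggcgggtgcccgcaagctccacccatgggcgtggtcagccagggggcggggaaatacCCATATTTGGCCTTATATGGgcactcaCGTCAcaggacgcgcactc
Dusp6, chr10:99262981-99263230, plus strand: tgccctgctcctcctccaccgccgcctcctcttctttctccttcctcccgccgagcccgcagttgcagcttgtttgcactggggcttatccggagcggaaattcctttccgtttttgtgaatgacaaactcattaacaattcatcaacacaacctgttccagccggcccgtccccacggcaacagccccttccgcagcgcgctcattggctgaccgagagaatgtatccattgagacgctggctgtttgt
Dusp7, chr9:106368382-106368631, plus strand: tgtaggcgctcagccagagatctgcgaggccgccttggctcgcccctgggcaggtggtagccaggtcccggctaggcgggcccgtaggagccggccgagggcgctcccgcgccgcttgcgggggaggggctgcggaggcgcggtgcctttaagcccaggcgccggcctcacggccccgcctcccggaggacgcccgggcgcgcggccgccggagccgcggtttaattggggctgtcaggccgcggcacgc

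The Dusp1 window held 1 full CRE, 143 to 136 bases before the start, a further core 191 to 187 bases before it, and an E-box 126 to 121 bases before it. A full CRE is present in 1.55% of the 32851 mouse promoter windows of this length, and among the 9 members only in that of Dusp1. The Dusp5 window held 2 adjacent CArG boxes, 82 to 63 bases before the start, and a CRE core 55 to 51 bases before it. A CArG box is present in 1.47% of windows and a CRE core in 17.8%, and the core was also found for Dusp16. The windows of Dusp6 and Dusp7 held no match to these motifs, and no member window held the AP-1 motif, which 6.75% of all windows hold. The E-box, in 6.02% of windows, was also found for Dusp2, and TATAAA, in 12.4% of windows, for none. These matches are letters in a fixed window and show no binding.

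Levels of the members ran between 0.0310 FPKM (Dusp14 in Ly6C spleen replicate 2) and 847 FPKM (Dusp1 in Ly6G tumor replicate 2), and Dusp1 was the most abundant in all 12 libraries. FPKM is scaled to gene length, so levels can be ordered between genes. In Ly6C tumor the mean order was Dusp1, Dusp6, Dusp5, Dusp7, Dusp2, Dusp4, Dusp10, Dusp14, Dusp16 and Dusp3. Neighbours whose 3 libraries overlapped there were Dusp5 and Dusp7, Dusp2 and Dusp4, Dusp10 and Dusp14, and Dusp14 and Dusp16. In Ly6C spleen the order was Dusp1, Dusp6, Dusp2, Dusp5, Dusp7, Dusp3, Dusp16, Dusp4, Dusp10 and Dusp14. The overlapping neighbours were Dusp2 and Dusp5, Dusp5 and Dusp7, Dusp3 and Dusp16, and Dusp4 and Dusp10. In Ly6G tumor the order was Dusp1, Dusp5, Dusp6, Dusp7, Dusp2, Dusp4, Dusp16, Dusp10, Dusp14 and Dusp3, with overlap between Dusp5 and Dusp6, among Dusp7, Dusp2 and Dusp4, and among Dusp16, Dusp10 and Dusp14. In Ly6G spleen the order was Dusp1, Dusp6, Dusp2, Dusp5, Dusp7, Dusp16, Dusp3, Dusp4, Dusp10 and Dusp14. The overlapping neighbours were Dusp2 and Dusp5, Dusp7 and Dusp16, Dusp3 and Dusp4, and Dusp4 and Dusp10. Dusp4 thus stood in sixth place in both tumor groups and in eighth place in both spleen groups.

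**Figure D1:**
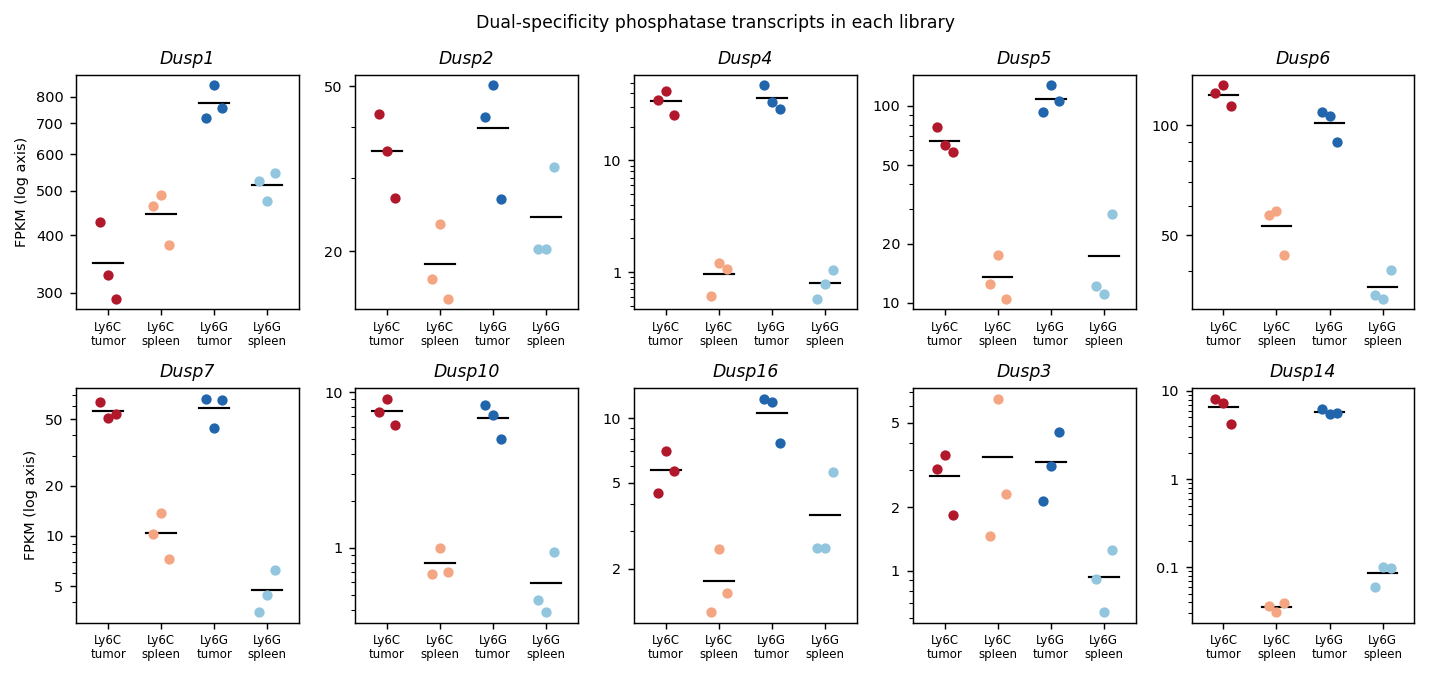
FPKM of each member in the 12 libraries on a log axis whose range differs between panels; points are libraries and bars are group means of 3. For Dusp4, Dusp5, Dusp6, Dusp7, Dusp10, Dusp16 and Dusp14 the tumor points lie above the spleen points of the same label, while the Dusp1 tumor points lie above the spleen points in Ly6G and overlap them in Ly6C.

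The first question was whether phosphatase transcripts differ between tumor and spleen libraries of the same label. In the Ly6C libraries 8 of the 10 members rose in tumor, none fell (limma, also 0 lower at an unadjusted p under 0.05), and Dusp1 and Dusp3 did not pass. Over all 13610 genes 76.7% passed in this comparison, 46.2% as higher and 30.5% as lower, so a passing gene was common. In the Ly6G libraries all 10 members rose, where 76.2% of all genes passed, 51.5% as higher and 24.7% as lower. The median log2 change of the 10 members was 1.77 in Ly6C and 1.88 in Ly6G, against 0.27 and 0.43 for all genes tested. Dusp14 was at most 0.0992 FPKM in spleen, and Dusp10 reached 1 FPKM there only in Ly6C spleen replicate 2. Both entered the tests through the tumor libraries, so their rise in each label, included in these counts and medians, is no separate sign. All changes are differences of log2(FPKM + 1), which understate the change of genes near or below 1 FPKM. A gene passed in limma at a Benjamini-Hochberg adjusted p under 0.05, two-sided, with the adjustment over all genes tested.

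**Figure D2:**
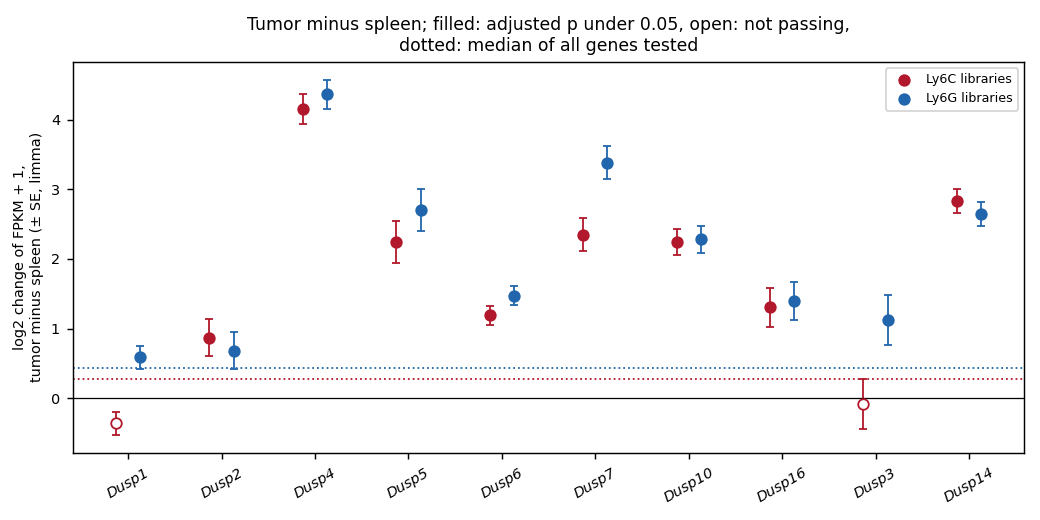
Log2 change of FPKM + 1, tumor minus spleen, with its standard error from limma, for each member in Ly6C and Ly6G libraries; filled points passed, open points did not, and dotted lines are the medians of all genes tested (0.27 and 0.43). Dusp4 has the highest change on this scale in both labels (4.16 and 4.36), and Dusp1 and Dusp3 in Ly6C are the open points.

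The nuclear, inducible members include Dusp4, with the largest change of the 10 on the log2(FPKM + 1) scale, and Dusp1, which did not pass in Ly6C. Dusp4, a nuclear phosphatase of ERK, JNK and p38, had 35.2, 41.7 and 25.6 FPKM in Ly6C tumor, against 0.608, 1.203 and 1.05 FPKM in Ly6C spleen. It had 47.3, 33.4 and 29.0 FPKM in Ly6G tumor, against 0.578, 0.789 and 1.04 FPKM in Ly6G spleen. Every tumor library was above every spleen library, so the gene was near the 1 FPKM limit of the filter in spleen and above 25 FPKM in tumor. The log2 change was 4.16 ± 0.21 in Ly6C (SE, limma adjusted p = 8.89e-09) and 4.36 ± 0.21 in Ly6G (limma adjusted p = 7.12e-09). By size of change it ranked at place 294 of 13610 genes in Ly6C and at place 225 in Ly6G. With a pseudocount of 0.1 Dusp14 was above it in Ly6C (5.56 against 5.04 for Dusp4) and below it in Ly6G (5.002 against 5.35 for Dusp4). Dusp14 lay below 0.1 FPKM in spleen, so this pseudocount still understates its change. In Ly6G, Dusp14 averaged 5.81 FPKM in tumor and 0.0852 FPKM in spleen, and Dusp4 36.6 and 0.802 FPKM. In Ly6C the means were 6.55 and 0.0354 FPKM for Dusp14, and 34.2 and 0.955 FPKM for Dusp4. As a ratio of these means the change of Dusp14 was the larger in both labels.

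Dusp5, a nuclear phosphatase selective for ERK, had 78.4, 63.4 and 58.1 FPKM in Ly6C tumor, against 12.4, 17.5 and 10.5 FPKM in Ly6C spleen. It had 93.3, 127 and 106 FPKM in Ly6G tumor, against 12.1, 11.1 and 28.3 FPKM in Ly6G spleen. The groups did not overlap in either label, and Ly6G spleen replicate 3 was the highest spleen library. Its log2 change was 2.24 ± 0.30 in Ly6C (SE, limma adjusted p = 2.76e-05) and 2.70 ± 0.30 in Ly6G (limma adjusted p = 6.05e-06).

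Dusp2, a nuclear phosphatase first described in activated lymphocytes, had 42.9, 34.9 and 26.9 FPKM in Ly6C tumor, against 17.1, 23.3 and 15.4 FPKM in Ly6C spleen. It had 42.2, 50.3 and 26.8 FPKM in Ly6G tumor, against 20.2, 20.3 and 32.0 FPKM in Ly6G spleen. The Ly6C groups were apart, whereas Ly6G tumor replicate 3 lay below Ly6G spleen replicate 3. Its log2 change was 0.87 ± 0.26 in Ly6C (SE, limma adjusted p = 0.01004) and 0.68 ± 0.26 in Ly6G (limma adjusted p = 0.0335). The Ly6G call was lost without any one of Ly6G tumor replicate 1 or 2 or Ly6G spleen replicate 1 or 2, with the log2 change between 0.49 and 0.62 and limma adjusted p between 0.0930 and 0.136. It was also lost with median-of-ratios factors (0.15, limma adjusted p = 0.569), under quantile normalization (0.53, limma adjusted p = 0.0644) and without an expression filter (0.68, limma adjusted p = 0.0687). With median-of-ratios factors the Ly6C value was 0.56 (limma adjusted p = 0.0501).

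Dusp1, the immediate-early phosphatase that prefers p38 and JNK, had 427, 328 and 291 FPKM in Ly6C tumor, against 464, 489.8 and 381 FPKM in Ly6C spleen. It had 719, 847 and 756 FPKM in Ly6G tumor, against 525, 474 and 546 FPKM in Ly6G spleen. The Ly6C groups overlapped, with 2 of 3 tumor libraries below all spleen libraries, and all Ly6G tumor libraries were above all Ly6G spleen libraries. The log2 change was -0.36 in Ly6C (95% interval -0.73 to 0.0068, limma adjusted p = 0.0682) and 0.59 ± 0.17 in Ly6G (SE, limma adjusted p = 0.00740). Both values depend on the scaling between libraries. In Ly6C the value passed as lower at equal library sums (-0.46), under quantile normalization (-1.05) and with median-of-ratios factors (-0.69), and was 3.601 after scaling to the pan-leukocyte genes. It also passed as lower without Ly6C tumor replicate 1 (-0.52) and without Ly6C spleen replicate 3 (-0.47). In Ly6G it was 0.04 with median-of-ratios factors (limma adjusted p = 0.821).

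The cytoplasmic ERK phosphatases both rose in tumor. Dusp6, the classical ERK feedback phosphatase, had 123, 129 and 113 FPKM in Ly6C tumor, against 56.6, 58.2 and 44.0 FPKM in Ly6C spleen. It had 109, 106 and 90.2 FPKM in Ly6G tumor, against 34.3, 33.5 and 40.1 FPKM in Ly6G spleen. The lowest tumor library was well above the highest spleen library in each label, and the SE of its change was the smallest of the 10 members. Its log2 change was 1.19 ± 0.14 in Ly6C (SE, limma adjusted p = 7.55e-06) and 1.47 ± 0.14 in Ly6G (limma adjusted p = 1.32e-06).

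Dusp7, a close relative of Dusp6 that also acts on ERK, had 63.1, 51.0 and 53.6 FPKM in Ly6C tumor, against 10.3, 13.8 and 7.32 FPKM in Ly6C spleen. It had 66.5, 44.2 and 64.7 FPKM in Ly6G tumor, against 3.51, 4.43 and 6.22 FPKM in Ly6G spleen. The tumor levels of the labels overlapped, while every Ly6C spleen library was above every Ly6G spleen library. Its log2 change was 2.34 ± 0.24 in Ly6C (SE, limma adjusted p = 2.32e-06) and 3.38 ± 0.24 in Ly6G (limma adjusted p = 1.17e-07).

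The members that prefer JNK and p38 were lower in level and also rose in tumor. Dusp10 had 7.41, 9.09 and 6.14 FPKM in Ly6C tumor, against 0.684, 1.003 and 0.703 FPKM in Ly6C spleen. It had 8.25, 7.08 and 5.01 FPKM in Ly6G tumor, against 0.461, 0.388 and 0.936 FPKM in Ly6G spleen. The groups were apart in both labels, and the log2 change was nearly equal in them, 2.24 ± 0.19 in Ly6C (SE, limma adjusted p = 5.15e-07) and 2.28 ± 0.19 in Ly6G (limma adjusted p = 5.01e-07). Dusp16, a phosphatase that shuttles between nucleus and cytoplasm, had 4.51, 7.07 and 5.71 FPKM in Ly6C tumor, against 1.26, 2.46 and 1.54 FPKM in Ly6C spleen. It had 12.3, 11.8 and 7.65 FPKM in Ly6G tumor, against 2.50, 2.50 and 5.65 FPKM in Ly6G spleen. Tumor and spleen libraries did not overlap in either label. Its log2 change was 1.30 ± 0.27 in Ly6C (SE, limma adjusted p = 0.000944) and 1.39 ± 0.27 in Ly6G (limma adjusted p = 0.000591).

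Of the small atypical members, which lack the kinase-binding domain of the larger ones, Dusp14 rose in both labels, and Dusp3 rose in Ly6G and did not pass in Ly6C. Dusp14 had 8.21, 7.24 and 4.21 FPKM in Ly6C tumor, against 0.0358, 0.0310 and 0.0395 FPKM in Ly6C spleen. It had 6.30, 5.48 and 5.66 FPKM in Ly6G tumor, against 0.0588, 0.0992 and 0.0975 FPKM in Ly6G spleen. It was below 0.1 FPKM in all 6 spleen libraries and above 4 FPKM in all 6 tumor libraries. The log2 change was 2.83 ± 0.17 in Ly6C (SE, limma adjusted p = 3.41e-08) and 2.65 ± 0.17 in Ly6G (limma adjusted p = 6.80e-08). Dusp3, a phosphatase of ERK and JNK, had 3.04, 3.54 and 1.84 FPKM in Ly6C tumor, against 1.46, 6.53 and 2.31 FPKM in Ly6C spleen. It had 2.14, 3.14 and 4.55 FPKM in Ly6G tumor, against 0.916, 0.638 and 1.25 FPKM in Ly6G spleen. The Ly6C groups overlapped and Ly6C spleen replicate 2 was the highest of the 12 libraries, while the Ly6G groups were apart. Its log2 change was -0.08 in Ly6C (95% interval -0.86 to 0.71, limma adjusted p = 0.850) and 1.12 ± 0.36 in Ly6G (SE, limma adjusted p = 0.0136). The Ly6G call was lost without Ly6G tumor replicate 3 (0.91, limma adjusted p = 0.0572) and after quantile normalization (0.60, limma adjusted p = 0.107), and the Ly6C value was 2.86 after scaling to the pan-leukocyte genes.

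Counted by overlap alone, all 3 tumor libraries were above all 3 spleen libraries for 8 members in Ly6C, where 47.0% of all genes tested were and 31.5% were below, and for 9 in Ly6G, where 53.2% were and 26.0% were below. The exceptions were Dusp1 and Dusp3 in Ly6C and Dusp2 in Ly6G. Dusp10 and Dusp14 are counted here too, though they entered the tests through the tumor libraries.

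The choice of scaling moved the level of all changes. The median log2 change of all genes in Ly6C was 0.27 as deposited, 0.20 at equal sums, 0.02 with median-of-ratios factors, -0.0045 after quantile normalization and 3.28 after scaling to the pan-leukocyte genes. The members' median was 1.77, 1.69, 1.49, 1.44 and 4.92 in the same order. In Ly6G the median of all genes was 0.43, 0.68, 0.03, -0.02 and 2.36, and that of the members 1.88, 2.14, 1.46, 1.59 and 3.75. Dusp4, Dusp5, Dusp6, Dusp7, Dusp10, Dusp16 and Dusp14 passed as higher in both labels under all 5 scalings. The number of members that passed as higher in Ly6C was 8, 8, 7, 8 and 10, with Dusp1 lower under the second to the fourth, and in Ly6G it was 10, 10, 8, 8 and 10. Under the pan-leukocyte scaling, 94.6% of all genes passed in Ly6C and 91.2% as higher, and 93.1% passed in Ly6G and 89.4% as higher. Of all calls in Ly6C, 60.2% were higher as deposited, 51.1% with median-of-ratios factors, 50.0% under quantile normalization and 96.5% after scaling to the pan-leukocyte genes. In Ly6G 67.6%, 51.1%, 49.7% and 96.0% were.

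**Figure D3:**
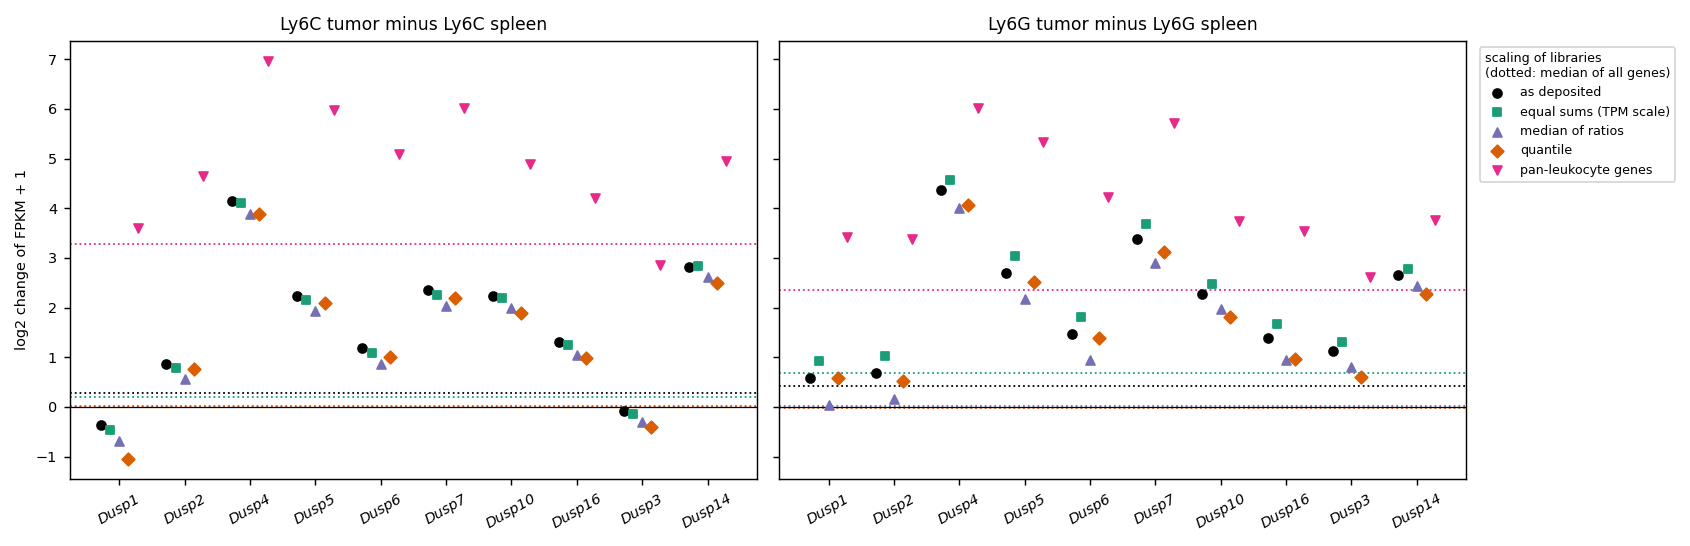
Log2 change of FPKM + 1, tumor minus spleen, of each member in Ly6C (left) and Ly6G (right) under 5 scalings between libraries, each marked by a colour and shape; dotted lines are the medians of all genes tested under the same scaling. Dusp1 in Ly6C lies between -1.05 and -0.36 under 4 scalings and at 3.601 under the fifth.

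The make-up of the summed phosphatase transcripts differed between tissues. Dusp1 made up 50.7% ± 2.78 of the members' summed FPKM in Ly6C tumor and 81.4% ± 1.36 in Ly6C spleen (SD, n = 3 each). It made up 67.5% ± 2.20 in Ly6G tumor and 85.5% ± 2.65 in Ly6G spleen (SD, n = 3 each). The lowest spleen share, 79.8%, was above the highest tumor share, 69.0%. The other 9 members summed to 336 ± 36.5 FPKM in Ly6C tumor and 102 ± 20.6 FPKM in Ly6C spleen (SD, n = 3 each). They summed to 372 ± 28.1 FPKM in Ly6G tumor and 88.1 ± 23.9 FPKM in Ly6G spleen (SD, n = 3 each). Dusp6 took 17.9% ± 2.12 of the sum in Ly6C tumor and 9.67% ± 0.315 in Ly6C spleen, and Dusp5 9.74% ± 0.298 and 2.44% ± 0.353 in the same groups (SD, n = 3 each). In the Ly6G libraries Dusp6 took 8.88% ± 0.840 in tumor and 5.96% ± 0.214 in spleen, and Dusp5 9.46% ± 0.944 and 2.78% ± 1.30 (SD, n = 3 each). These shares are the same under any factor that multiplies a whole library, since they compare genes within it. They show unequal change between members, not that any member was unchanged.

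**Figure D4:**
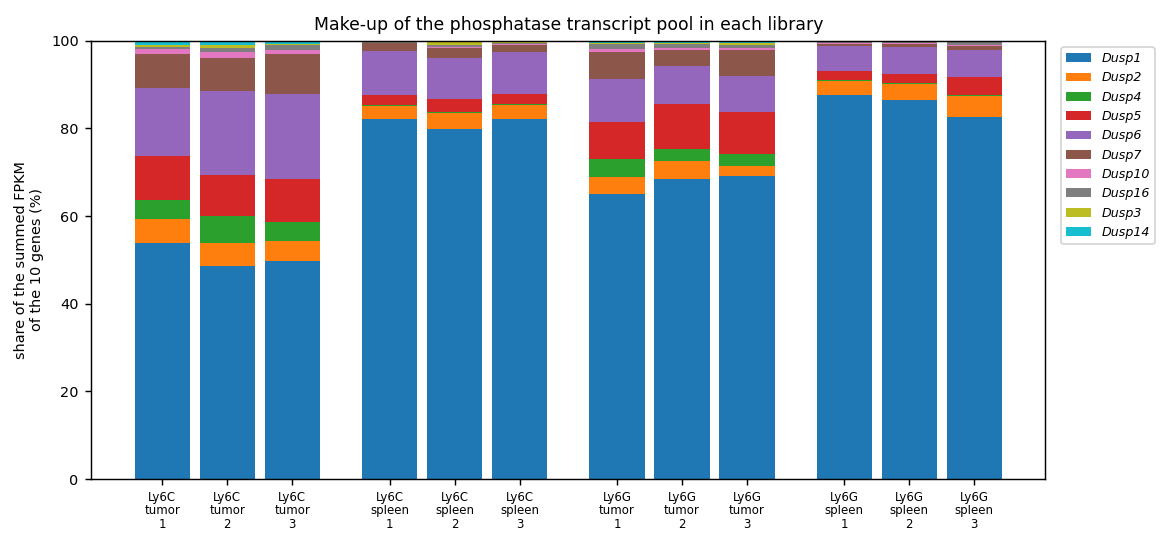
Share of each member in the summed FPKM of the 10 genes, as a percentage, in each of the 12 libraries. Dusp1 fills 48.6% to 53.9% of the Ly6C tumor bars, 65.0% to 69.0% of the Ly6G tumor bars and 79.8% to 87.5% of the spleen bars.

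The second question was whether the labels differ within a tissue. The tissue comparisons and the label comparisons share libraries, so their values are given side by side and not as independent results. In tumor, Dusp1 was lower in Ly6C than in Ly6G and was the only member to pass, where 14.5% of all genes passed, 8.70% as lower and 5.80% as higher. Its levels were those given above, 291 to 427 FPKM in Ly6C tumor and 719 to 847 FPKM in Ly6G tumor, with no overlap. The log2 change was -1.16 ± 0.17 (SE, limma adjusted p = 0.00237), at place 366 of 13610 genes by size. After scaling to the pan-leukocyte genes it was -0.05 (limma adjusted p = 0.901). Under that scaling 6 other members passed as higher in Ly6C tumor, Dusp2, Dusp4, Dusp6, Dusp7, Dusp10 and Dusp14 (0.94 to 1.37), where 69.5% of all genes passed and 68.4% as higher. Of all calls in tumor 40.0% were higher as deposited, 6.99% at equal sums, 51.2% under quantile normalization and 98.4% under the pan-leukocyte scaling. Of the 20 pan-leukocyte genes, 14 were lower in Ly6C tumor than in Ly6G tumor and none was higher, and 7 of 12 neutrophil genes were lower, their sum being 1381 to 2617 FPKM in Ly6C tumor and 4273 to 8507 FPKM in Ly6G tumor. Their part in the Dusp1 difference was not tested. Of the 12 dissociation-stress genes, a list that includes immediate-early genes, 1 was lower and 11 did not pass, and their sum was 2955 to 3394 FPKM in Ly6C tumor and 4113 to 4540 FPKM in Ly6G tumor. The median of that list was -0.43, against -0.12 for the members and 0.04 for all genes.

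Among the other members in tumor, Dusp16 (log2 change -0.77, 95% interval -1.37 to -0.17, limma adjusted p = 0.0787) and Dusp5 (-0.70, -1.36 to -0.038, limma adjusted p = 0.136) were below the Ly6G libraries in all 3 Ly6C libraries without passing. Dusp6 was above them in all 3 without passing (0.26, -0.04 to 0.56, limma adjusted p = 0.222). All 3 Ly6C libraries lay below all Ly6G libraries for 18.2% of genes tested, and above for 24.1%. For Dusp2, Dusp3, Dusp4, Dusp7, Dusp10 and Dusp14 the tumor libraries of the labels overlapped. Their log2 changes ran from -0.16 to 0.14, and the widest 95% interval was that of Dusp3, -0.94 to 0.63. Without Ly6G spleen replicate 3, Dusp5 and Dusp16 passed too (3 members in all), although their values did not move. They also passed after quantile normalization (-0.81 each, 3 members in all), and Dusp5 passed in a fit of the tumor libraries alone.

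In spleen, Dusp7, Dusp6 and Dusp3 were higher in Ly6C than in Ly6G and none of the members was lower, where 30.6% of all genes passed, 22.1% as higher and 8.59% as lower. At an unadjusted p under 0.05 limma gave 3 higher and 1 lower, Dusp16. Dusp7 averaged 10.5 ± 3.23 FPKM in Ly6C spleen and 4.72 ± 1.38 FPKM in Ly6G spleen (SD, n = 3 each), a log2 change of 0.99 ± 0.24 (SE, limma adjusted p = 0.00859). Dusp6 averaged 52.9 ± 7.77 FPKM in Ly6C spleen and 36.0 ± 3.601 FPKM in Ly6G spleen (SD, n = 3 each), a log2 change of 0.54 ± 0.14 (SE, limma adjusted p = 0.0119). Dusp3 averaged 3.43 ± 2.71 FPKM in Ly6C spleen and 0.935 ± 0.307 FPKM in Ly6G spleen (SD, n = 3 each), a log2 change of 1.04 ± 0.36 (SE, limma adjusted p = 0.0468). The Dusp3 call was lost without any one of 9 libraries, with limma adjusted p between 0.0509 and 0.144, and was 0.57 without Ly6C spleen replicate 2. After scaling to the pan-leukocyte genes no member passed in this comparison (limma, 1 higher at an unadjusted p under 0.05; Dusp7 0.76, Dusp6 0.49, Dusp3 0.59), where 1.03% of all genes did and 0.434% as higher. Each gene's residual variance in that fit comes from all 12 libraries, so these lost calls do not show that the spleen differences vanished. With median-of-ratios factors Dusp7 alone passed as higher, and Dusp1 (-0.48) and Dusp16 (-0.90) passed as lower. Under quantile normalization Dusp16 passed as lower too (-0.82, limma adjusted p = 0.0279) and the call of Dusp3 was lost (0.88, limma adjusted p = 0.06005), as it was without an expression filter (limma adjusted p = 0.117). In a fit of the spleen libraries alone only Dusp6 passed. Of all calls in spleen 72.0% were higher as deposited, 90.5% at equal sums, 42.8% with median-of-ratios factors, 53.0% under quantile normalization and 42.1% under the pan-leukocyte scaling. Of 8 B cell genes all were lower in Ly6C spleen than in Ly6G spleen, as were all 6 erythroid genes and all 5 T cell genes tested, and 5 of 10 monocyte genes were higher. The B cell sum was 250.4 to 383 FPKM in Ly6C spleen and 738 to 1274 FPKM in Ly6G spleen, the T cell sum 6.02 to 8.20 and 17.4 to 31.1 FPKM, the erythroid sum 212 to 607 and 884 to 2292 FPKM, and the monocyte sum 383 to 775 and 299.8 to 312 FPKM in the same groups. Their part in these differences was not tested.

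**Figure D5:**
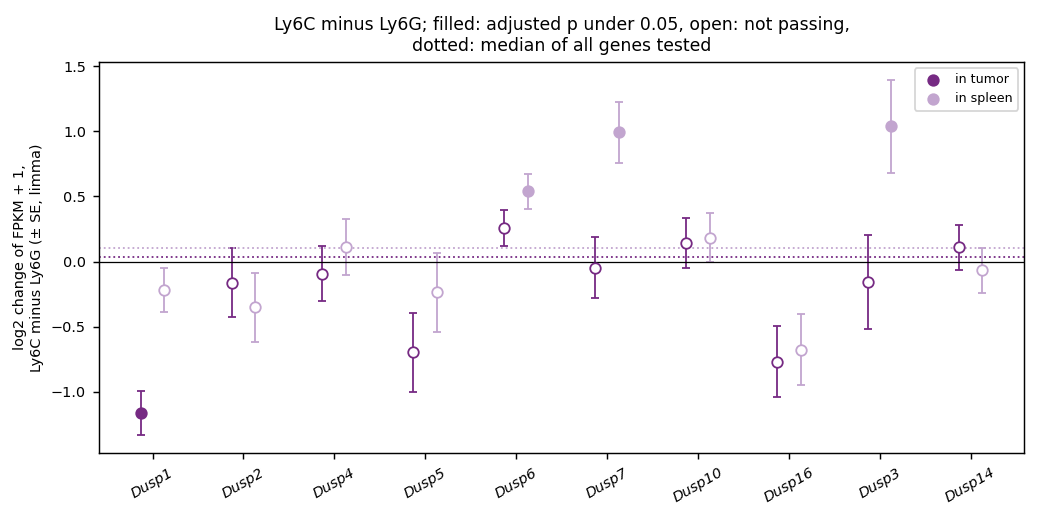
Log2 change of FPKM + 1, Ly6C minus Ly6G, with its standard error from limma, for each member in tumor and in spleen; filled points passed, open points did not, and dotted lines are the medians of all genes tested (0.04 in tumor, 0.11 in spleen). Dusp1 in tumor, at -1.16, is the only filled point below 0, and Dusp6, Dusp7 and Dusp3 in spleen are filled above it.

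The third question was whether the tumor minus spleen change itself differs between the labels, tested as an interaction over all 12 libraries. It passed as lower in Ly6C for Dusp1 and Dusp7, where 21.8% of all genes passed, 15.8% as lower and 6.02% as higher. For Dusp1 the change was -0.36 in Ly6C and 0.59 in Ly6G, a difference of -0.95 ± 0.24 (SE, limma adjusted p = 0.0166). For Dusp7 it was 2.34 in Ly6C and 3.38 in Ly6G, a difference of -1.04 ± 0.33 (SE, limma adjusted p = 0.0455). In the label comparisons, which share these libraries, Dusp1 was at -1.16 in tumor and -0.22 in spleen, and Dusp7 at -0.046 in tumor and 0.99 in spleen. The Dusp7 difference was lost without any one of 9 libraries (-1.13 to -0.83, limma adjusted p 0.0565 to 0.102). The Dusp1 difference passed without each single library (-1.10 to -0.83) and was lost without both libraries of highest mitochondrial share, replicate 3 of each tumor group (-0.84, limma adjusted p = 0.0749). After scaling to the pan-leukocyte genes the differences were 0.18 for Dusp1 and 0.30 for Dusp7, and no member passed (limma, 2 higher at an unadjusted p under 0.05), where 9.43% of all genes did and 9.25% as higher. Of all calls 27.6% were higher as deposited, 5.74% at equal sums, 54.1% with median-of-ratios factors, 51.9% under quantile normalization and 98.1% under the pan-leukocyte scaling. At equal sums 4 members passed as lower, Dusp1, Dusp7, Dusp6 (-0.72) and Dusp3 (-1.46). Dusp3 had the largest interaction value as deposited but did not pass (-1.20, 95% interval -2.31 to -0.086, limma adjusted p = 0.114), and passed without Ly6C spleen replicate 1 (-1.54, limma adjusted p = 0.0438). For the other 7 members the value lay between -0.46 and 0.19 and did not pass.

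Other genes of the pathway were read from lists named in the methods. Of the remaining catalytic MAPK phosphatases, Dusp9, an ERK phosphatase known from placenta, had 32.3, 33.4 and 27.0 FPKM in Ly6C tumor, against 0.0191, 0.0442 and 0 FPKM in Ly6C spleen. It had 29.4, 21.2 and 25.3 FPKM in Ly6G tumor, against 0.0723, 0.0784 and 0.0610 FPKM in Ly6G spleen. Every tumor library was above every spleen library, with a log2 change of 4.96 ± 0.13 in Ly6C (SE, limma adjusted p = 2.85e-11) and 4.61 ± 0.13 in Ly6G (limma adjusted p = 6.20e-11), above those of all 10 members on the log2(FPKM + 1) scale. Dusp8, a JNK and p38 phosphatase, averaged 4.06 ± 0.378 FPKM in Ly6C tumor and 0.155 ± 0.124 FPKM in Ly6C spleen, and 5.01 ± 1.27 FPKM in Ly6G tumor and 0.248 ± 0.130 FPKM in Ly6G spleen (SD, n = 3 each). It rose by 2.14 ± 0.15 in Ly6C and 2.25 ± 0.15 in Ly6G on the log2 scale (SE). Neither Dusp8 nor Dusp9 reached 1 FPKM in any spleen library. Both entered the tests through the tumor libraries, so their rise is no separate sign. Styxl1, a catalytically inactive relative, had at most 0.382 FPKM and was not tested.

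Over all genes tested 46.2% rose and 30.5% fell in Ly6C tumor, and 51.5% rose and 24.7% fell in Ly6G tumor. Of 16 other atypical dual-specificity genes 10 were tested. Among these, 5 rose and 3 fell in Ly6C tumor, while 7 rose and 2 fell in Ly6G tumor. Dusp18 rose most (1.89 in Ly6C, 2.08 in Ly6G) and Ssh2, a cofilin phosphatase, fell most (-1.28 in Ly6C, -0.70 in Ly6G). Dusp18 and Dusp19 entered the tests through the tumor libraries, so their rise is no separate sign. Of 9 MAPK phosphatases from other families 7 were tested, and 2 rose and 3 fell in Ly6C, while 2 rose and 2 fell in Ly6G. Ptpn7, a tyrosine phosphatase of blood cells that acts on ERK and p38, fell most, with a log2 change of -3.55 ± 0.19 in Ly6C and -2.08 ± 0.19 in Ly6G (SE). Ppm1l, a serine and threonine phosphatase, rose most, by 2.85 ± 0.11 in Ly6C and 2.74 ± 0.11 in Ly6G (SE). It was at most 0.462 FPKM in spleen and also entered the tests through the tumor libraries.

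The kinases themselves did not move in one direction. Among all genes tested 46.2% rose and 30.5% fell in Ly6C, and 51.5% rose and 24.7% fell in Ly6G. Of 14 MAP kinase genes 12 were tested, and 4 rose and 4 fell in each label. Mapk12, the gamma isoform of p38, rose most (3.75 in Ly6C, 3.26 in Ly6G), and Mapk13, the delta isoform, fell most (-4.01 in Ly6C, -3.57 in Ly6G). Mapk12 and Mapk8 entered the tests through the tumor libraries and Mapk4 through the Ly6C spleen libraries, so their changes toward those groups are no separate sign. Mapk14, the alpha isoform, changed by -1.69 in Ly6C and -1.04 in Ly6G. Mapk3, an ERK gene, changed by -1.56 in Ly6C and -1.50 in Ly6G. The JNK gene Mapk9 rose by 0.99 in Ly6C and 1.24 in Ly6G, and Mapk8 was at 0.13 in Ly6C, where it did not pass, and 0.36 in Ly6G, where it did. Of 7 MAP kinase kinase genes 1 rose and 2 fell in Ly6C, and 4 rose and 1 fell in Ly6G. Map2k5 rose most in both labels (0.48 and 0.92) and Map2k4 fell most in both (-0.94 and -0.96).

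Most of the listed ERK feedback and target genes rose. Of 23 such genes, all tested, 17 rose and 2 fell in Ly6C, and 21 rose and 1 fell in Ly6G, with medians of 2.21 and 2.63. Spry1, Spry4, Spred1, Spred3, Etv1, Etv4 and Ccnd1 reached 1 FPKM in too few spleen libraries for the filter. They entered the tests through the tumor libraries, so their part in these counts and medians is no separate sign. Over all genes tested 46.2% rose and 30.5% fell in Ly6C, and 51.5% rose and 24.7% fell in Ly6G. Under the 4 other scalings 16 to 23 of the listed genes rose in Ly6C and 18 to 23 in Ly6G. These include the pan-leukocyte scaling, under which 91.2% of all genes rose in Ly6C and 89.4% in Ly6G. Medians of the list stayed between 1.83 and 5.08. On the log2(FPKM + 1) scale the gene with the largest rise was Etv4 in Ly6C (5.18 ± 0.18) and Fosl1 in Ly6G (5.87 ± 0.22, SE), both transcription factors downstream of ERK, and the one with the largest fall was Ier2 in both (-1.48 and -1.26). That order of Etv4 and Fosl1 in Ly6G is one of this scale: Etv4 averaged 33.6 FPKM in Ly6G tumor and 0.0368 FPKM in Ly6G spleen, and Fosl1 284 FPKM in Ly6G tumor and 3.94 FPKM in Ly6G spleen. Of 14 genes of p38 targets and mRNA decay 13 were tested, and 3 rose and 7 fell in Ly6C, while 5 rose and 3 fell in Ly6G. Among them Hspb1 entered the tests through the tumor libraries and Rps6ka5 through the Ly6C spleen libraries. Gadd45b, an activator of p38 signalling, rose most (3.59 in Ly6C, 3.97 in Ly6G), and Mapkapk3, a kinase activated by p38, fell most (-2.003 and -0.79). The median of the p38 list was -0.42 in Ly6C and 0.12 in Ly6G, and the Ly6G value turned to -0.34 with median-of-ratios factors and -0.02 under quantile normalization. After scaling to the pan-leukocyte genes every tested gene of this list rose in Ly6C (13 of 13) and 12 rose in Ly6G. All but 2 of the tested MAP kinases rose in each label. Under that scaling 91.2% of all genes rose in Ly6C and 89.4% in Ly6G. These lists also hold genes that cell dissociation induces: of the 12 dissociation-stress genes 5 rose and 2 fell in Ly6C tumor, and 10 rose and 1 fell in Ly6G tumor. Their part in the members' changes was not tested.

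The same lists were read between the labels. In tumor, where 8.70% of all genes were lower, 6 of 13 p38 target and mRNA decay genes were lower in Ly6C than in Ly6G and none was higher, led by Zfp36, which destabilises cytokine mRNA (-1.22 ± 0.24, SE, limma adjusted p = 0.00864); after scaling to the pan-leukocyte genes none was lower and 2 were higher. Of 23 ERK feedback and target genes 2 were lower, led by Egr1 (-2.14 ± 0.58, SE, limma adjusted p = 0.0327), and none was higher. No MAP kinase, MAP kinase kinase, other MAPK phosphatase, Dusp8 or Dusp9 passed in tumor, and of the other atypical genes only Dusp19 did (0.37). In spleen, where 22.1% of all genes were higher and 8.59% lower, 5 p38 target and mRNA decay genes were higher, led by Mapkapk3 (1.22), and none was lower. There 4 ERK feedback and target genes were higher, led by Jun (1.58), and 3 were lower, led by Ier3 (-0.87). Ptpn7 (1.40), Mapk4 (0.44), Map2k5 (0.54) and Dusp22 (0.91) led the higher genes of their lists in spleen, and Mapk11 (-1.002) and Map2k4 (-0.39) the lower ones. In the interaction, where 15.8% of all genes passed as lower, 7 of 13 p38 target and mRNA decay genes passed as lower in Ly6C, led by Mapkapk2 (-1.81), as did 4 of 23 ERK feedback and target genes, led by Jun (-1.79). Ccnd1 (0.87) and Mapk11 (0.74) passed as higher, and Ptpn7 (-1.47), Map2k3 (-0.80) and Mapk6 (-0.74) led the lower genes of their lists. After scaling to the pan-leukocyte genes no gene of the p38 or ERK list passed in spleen or in the interaction by limma. Under that scaling 140 genes of the series passed in spleen and 1284 in the interaction. Residual variance was again pooled over the 12 libraries, so in spleen the lost calls do not show that the differences vanished.

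Across the 12 libraries Dusp4, Dusp5, Dusp6, Dusp7, Dusp10 and Dusp14 followed each other, as a description over points that share libraries, depth and the tissue contrast. Pearson's r of log2(FPKM + 1) was 0.99 for Dusp4 with Dusp14 and for Dusp4 with Dusp10, and 0.98 for Dusp6 with Dusp7. The lowest among them was 0.87, for Dusp5 with Dusp6. With these members Dusp16 ran from 0.69 (Dusp6) to 0.92 (Dusp5), and Dusp2 from 0.71 (Dusp7) to 0.87 (Dusp5), so the sets were not cleanly apart. For Dusp1 this r was between -0.01 (with Dusp6) and 0.46 (with Dusp16). Within groups, as deviations from the group means, the r of Dusp1 with the other members was between 0.07 (with Dusp16) and 0.69 (with Dusp2). Among Dusp4, Dusp5, Dusp6, Dusp7, Dusp10 and Dusp14 the within-group r was between 0.18 (Dusp5 with Dusp14) and 0.85 (Dusp4 with Dusp10). It was 0.62 for Dusp4 with Dusp14 and 0.54 for Dusp6 with Dusp7. The close likeness over all libraries thus rests largely on the step between tumor and spleen. The genes most like each member, leaving out other members and predicted genes, were also ranked by this r. For Dusp1 they were Rbm47 (0.92) and Ulk3 (0.91), for Dusp2 Doc2g (0.93) and Ndufaf4 (0.93), and for Dusp3 P2rx7 (0.94) and Itpripl1 (0.93). For Dusp5 they were Gadd45b (0.99) and Cdon (0.98), and for Dusp16 Setd4 (0.98) and Bcl2 (0.97). For the remaining members r exceeded 0.99 for both genes: Thbs3 and Plxna3 for Dusp4, Aup1 and Set for Dusp6, Lsm14b and Gas2l1 for Dusp7, Hsp90aa1 and Plekha5 for Dusp10, and Fblim1 and Nkx2-2 for Dusp14. Gadd45b averaged 148 FPKM in Ly6C tumor and 11.4 FPKM in Ly6C spleen, and 265 FPKM in Ly6G tumor and 16.9 FPKM in Ly6G spleen. Rbm47 averaged 2.97 FPKM in Ly6C tumor and 4.04 FPKM in Ly6C spleen, and 6.47 FPKM in Ly6G tumor and 5.13 FPKM in Ly6G spleen, the same order of groups as Dusp1.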

How the data were processed

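RNA from 12 mouse libraries (4 groups of 3) was sequenced as paired ends, per the labels. The deposited matrix gives FPKM per gene, computed by the authors. Per the submitters' processing notes, HISAT2 2.0.5 and featureCounts 1.5.0-p3 were used with GRCm38. Neither names the tool that computed FPKM, the annotation release or strandedness. Of 54674 rows, 570 unnamed loci were left out, and 54038 identifiers matched a symbol. Library sums were 331681 to 449309 FPKM, and 10379 to 12337 genes reached 1 FPKM. No pair of libraries held identical values. Low values were not whole steps of one read (23.9% to 27.6% within 0.05 of a whole number), so reads were not recovered and depth is unknown.

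Changes come from limma 3.58.1 (R 4.3.3) on log2(FPKM + 1), with 4 group means, a trended prior and 8 residual degrees of freedom, over the 13610 genes at or above 1 FPKM in 3 or more libraries. Tests were two-sided, Benjamini-Hochberg adjusted over all of them and passed under 0.05. The fit was tested on simulated data. The members, lists and comparisons were chosen with earlier results of these data known. Named genes are all members, the largest passing rise and fall of each pathway list, the other MAPK phosphatases of the Dusp type, 4 MAP kinases, a few markers, and the 2 genes most like each member. Further genes named beside these were chosen after their values were seen. One gene that this rule names is not reported here.

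Alternatives were another pseudocount, other filters, 4 scalings, fits of the compared groups alone, a replicate block and leaving out each library. Leaving out both tumor libraries of highest mitochondrial share was chosen after seeing the data. The lists cover MAPK phosphatases, MAP kinases and their kinases, ERK feedback and target genes, p38 targets with mRNA decay genes, and markers of the cell types named in the text. For the marker lists whose tumor against spleen calls are not given there, 9 of 10 monocyte genes fell in Ly6C and 6 in Ly6G. All 12 neutrophil genes, all 8 B cell, all 5 tested T cell and all 6 erythroid genes fell in both. Of 10 macrophage genes 1 rose in both, with 4 lower in Ly6C and 6 in Ly6G. Endothelial, NK cell and dendritic cell lists had at most 2 genes tested.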

Additional observations from a re-analysis of the deposited data

Results flagged for a closer look

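Both results are differences between the labels in the tumor minus spleen change, each found by the interaction term itself. Over all genes tested 21.8% passed this term, 15.8% as lower in Ly6C and 6.02% as higher, so a passing gene was not rare. Whether the members passed more often than other genes was not tested. For Dusp1 the log2 change was -0.36 in Ly6C and 0.59 in Ly6G, a difference of -0.95 (limma adjusted p = 0.0166). All 3 Ly6G tumor libraries were above all 3 Ly6G spleen libraries, while the Ly6C groups overlapped. For Dusp7 the log2 change was 2.34 in Ly6C and 3.38 in Ly6G, a difference of -1.04 (limma adjusted p = 0.0455). All 6 tumor libraries were above all 6 spleen libraries. The Dusp7 call was lost without any one of 9 libraries and with median-of-ratios factors (-0.86, limma adjusted p = 0.0637). That of Dusp1 was lost without replicate 3 of both tumor groups. After scaling to the pan-leukocyte genes the differences were 0.18 for Dusp1 and 0.30 for Dusp7, and neither passed. The pan-leukocyte genes also differed in this term, 9 of 20 passing as lower in Ly6C and none as higher, with a median of -1.12 against -0.10 for all genes; their part in the differences was not tested.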

How the results depend on the processing

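In tumor against spleen, the calls of Dusp4, Dusp5, Dusp6, Dusp7, Dusp10, Dusp16 and Dusp14 in both labels kept their direction and their side of the threshold under each alternative. Of these, Dusp10 and Dusp14 entered the main tests through the tumor libraries. A filter at 5 FPKM, which tests fewer genes, removed 1 member, Dusp3. Genes passing then numbered 6694 in Ly6C (10443 without that filter) and 6648 in Ly6G (10367). The share of tested genes that passed under it is not given here. For the values below, the cause of the move was not tested.

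After scaling to the pan-leukocyte genes, the log2 change in Ly6C turned to 3.601 for Dusp1 and 2.86 for Dusp3. The Ly6C minus Ly6G difference in tumor turned to 0.94 for Dusp2, 1.008 for Dusp4, 0.41 for Dusp5, 1.06 for Dusp7, 0.23 for Dusp16 and 0.83 for Dusp3, with 9458 genes and 6 members passing (1974 and 1 as deposited). In spleen that scaling left 140 genes and 0 members (4171 and 3 as deposited). There Dusp6 moved from 0.54 to 0.49, Dusp7 from 0.99 to 0.76 and Dusp3 from 1.04 to 0.59. The sum of the 20 pan-leukocyte genes spanned 177 to 359.9 FPKM in Ly6C tumor and 433 to 747 FPKM in Ly6G tumor. It spanned 4213 to 4838 FPKM in Ly6C spleen and 5077 to 5269 FPKM in Ly6G spleen. Residual variance is pooled over all 12 libraries, so the lost spleen calls do not show that those differences vanished. The interaction turned to 0.18 for Dusp1, 0.96 for Dusp4, 0.64 for Dusp5, 0.88 for Dusp6, 0.30 for Dusp7, 1.15 for Dusp10, 0.66 for Dusp16 and 0.24 for Dusp3, with 1284 genes and 0 members (2972 and 2 as deposited).

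At equal library sums the spleen difference turned to 0.11 for Dusp1 and 0.065 for Dusp5, and the interaction to -0.24 for Dusp2, with 4795 genes and 4 members. With median-of-ratios factors the spleen difference of Dusp4 was -0.012, and the interaction was 0.017 for Dusp10 and 0.11 for Dusp16, with 1 member passing. Under quantile normalization the spleen difference of Dusp1 was 0.14, the interaction was 0.079 for Dusp10 and 0.012 for Dusp16, and 3 members passed in tumor. With a pseudocount of 0.1 the interaction of Dusp16 was 0.061, and without an expression filter 1 member passed the interaction, as the call of Dusp7 was lost (limma adjusted p = 0.106). In fits of the 2 compared groups alone, 2586 genes and 1 member passed in spleen and 2 members in tumor.

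Without replicate 3 of both tumor groups, an alternative chosen after seeing the data, the Ly6C change of Dusp3 was 0.12, and the tumor differences of Dusp7 and Dusp3 were 0.064 and 0.25. That fit passed 260 genes in tumor, and 1417 genes and 0 members in the interaction (limma, 1 higher and 2 lower at an unadjusted p under 0.05).

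With single libraries left out, the Ly6C change of Dusp3 ran from -0.42 to 0.39 and the spleen difference of Dusp5 from -0.47 to 0.17. In tumor 746 to 2618 genes and 1 to 3 members passed, and the count fell by over 1.5 times without Ly6C tumor replicate 1 (1117), 2 (763) or 3 (750.0) or Ly6G tumor replicate 2 (1018) or 3 (746). The tumor differences ran from -0.42 to 0.026 for Dusp2, -0.25 to 0.10 for Dusp4, -0.23 to 0.056 for Dusp7, -0.031 to 0.28 for Dusp10, -0.36 to 0.049 for Dusp3 and -0.055 to 0.36 for Dusp14. In the interaction 2095 to 3124 genes and 1 to 2 members passed, and values ran from -0.066 to 0.38 for Dusp2, -0.21 to 0.097 for Dusp10 and -0.40 to 0.085 for Dusp16.

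The labels do not say whether the replicate numbers pair the samples. Same-numbered libraries had correlations of deviations from the group means between -0.36 and 0.28. Some libraries were most like the one with their own number, and others were not. With 3 libraries per group these values cannot decide whether the numbers pair samples. With a replicate block 1 member passed the interaction, Dusp7 reaching -1.04 with limma adjusted p = 0.0762, and Dusp3 in spleen had limma adjusted p = 0.0521. The block changed no other call of a member. Sequencing depth is unknown, so no limit from counts can be given.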
